A study of Mus musculus with 84 samples.

Results

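Adipocyte genes were followed in colon preparations of male mice that had received transplanted gut bacteria. The set held 10 genes of 25494 in the count table, namely the adipokines Adipoq, Lep, Retn and Cfd, the lipid droplet genes Plin1, Plin4 and Cidec, and the fatty acid handling genes Fabp4, Lipe and Lpl. The rule took each gene by its symbol. The members were selected on measured values, since their lower counts in HFDHFB than in HFDLFB were known when the set was drawn up. All 10 had reads in every library and passed the filter on low counts, which kept 15893 genes.

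Germ-free C57BL/6 males were gavaged with stool of male donors kept on a high fat diet (HFD) or a low fat diet (LFD), and were themselves fed one of the same diets. The 4 groups were HFDHFB (high fat diet, high fat bacteria), HFDLFB (high fat diet, low fat bacteria), LFDHFB (low fat diet, high fat bacteria) and LFDLFB (low fat diet, low fat bacteria), with 3 RNA-seq libraries each. Peak lists were used from colon epithelium of male and female C57BL/6 mice fed either diet for up to 20 weeks, and from recipients. They covered the acetylation mark H3K27ac, found at enhancers and promoters in use (12 long-term lists and 11 of recipients, with 2 from HFDHFB), H3K4me1, which marks enhancers whether active or poised (12 lists), and the nuclear receptor HNF4α (4 lists, males). Ages at sampling were not in the labels. The labels call every sample colon epithelium, but the methods state that RNA of the recipients came from cells scraped off the colon, whereas epithelium for ChIP-seq was shaken off in EDTA.

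Adipocytes store triglyceride in a single large droplet coated by perilipins and release it as fatty acids by lipolysis. They also secrete hormones, the adipokines, which report on fat stores to the brain, liver and muscle. White fat lies in the mesentery, against the outer wall of the colon, and is not part of the epithelium. Fibroblasts and macrophages can express some of these genes, such as Lpl and Fabp4, whereas adiponectin and leptin are close to specific for adipocytes.

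The promoters of the members were searched for motifs of the factors best known at fat genes. In the 250 bases before each start, taken from the mm9 genome (NCBIM37), the C/EBP palindrome TTGCNNAA was searched on both strands and found in 3 of 10 members, against 8.91% of 24652 promoters of the same length. The DR1 repeat bound by PPARγ with RXR, searched on both strands, was in 0.345% of all promoters and in none of the 10. The following 30-base windows hold the C/EBP matches in capitals, 5′ to 3′ on the strand of the gene, and are shown because Lep, Lpl and Plin1 are the members that carry one. They lie at chr6:29010155-29010184 (+), chr8:71404321-71404350 (+), chr7:86877831-86877860 (-) and chr7:86877702-86877731 (-), all between genes in GENCODE vM1, with the matches beginning at -55, -122, -187 and -58 bases from the start.
Lep: tggccggacagTTGCGCAAgtggcactggg
Lpl: ctcgttaccgtTTGCTCAAatatttggaag
Plin1, first match: ccacctctttaTTGCCTAAacatcccccat
Plin1, second match: tctgagaggcaTTGCCCAAgattccctgga

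Only Plin1 and Cidec had an interval that HNF4α peaks of all 4 lists shared. Both lay upstream, from -2026 to -1854 of Plin1 (chr7:86879516-86879688, - strand) and from -3198 to -3036 of Cidec (chr6:113388790-113388952, - strand), between genes in GENCODE vM1. Capitals mark CAAAG, the letters common to HNF4α sites, or CTTTG, the same letters on the other strand. Plin1 held 3 and Cidec 1, and 68.6% of 94204 HNF4α peaks held at least 1. The longer core CAAAGNNCA, searched on both strands, was in 26.2% of the peaks and in neither interval.
Plin1: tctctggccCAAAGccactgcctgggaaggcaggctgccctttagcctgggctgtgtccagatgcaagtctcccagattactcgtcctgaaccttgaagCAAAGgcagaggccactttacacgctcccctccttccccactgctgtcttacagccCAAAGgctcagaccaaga
Cidec: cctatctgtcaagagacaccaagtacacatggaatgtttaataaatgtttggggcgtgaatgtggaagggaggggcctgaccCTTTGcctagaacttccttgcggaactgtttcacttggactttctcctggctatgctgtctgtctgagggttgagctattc

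RNA-seq depth was even. Totals ran from 39904191 to 48026846 counted reads per library, TMM factors lay between 0.921 and 1.096, and no 2 libraries were identical. The 8 epithelial markers, among them Epcam and Vil1, summed to between 10800 and 15300 CPM (counts scaled to library size) in every library, so the markers of the labelled tissue were present, while markers of other wall layers were also present and are given with the results they touch. The library HFDLFB 3 stood apart in 8 pancreas markers, at 563 CPM against at most 22.6 CPM in each of the others.

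Adipoq encodes adiponectin, a hormone that raises insulin sensitivity. Its level was 1.71, 55.1 and 19.9 CPM in the 3 HFDHFB libraries and 168, 442 and 46.1 CPM in the HFDLFB libraries. In LFDHFB it was 1.34, 42.3 and 149 CPM, and in LFDLFB it was 28, 13.4 and 5.24 CPM. A single HFDLFB library held the highest value, the low end was shared by the first HFDHFB and LFDHFB libraries, and the HFDHFB and HFDLFB groups overlapped. In bulk samples such as these, fewer adipocytes and less RNA per adipocyte cannot be told apart.

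Lep encodes leptin, the satiety hormone that signals the size of fat stores. It was at 0.774, 12.8 and 5.72 CPM in HFDHFB and at 72.8, 163 and 14.9 CPM in HFDLFB. The LFDHFB libraries held 0.154, 7.73 and 52 CPM and the LFDLFB libraries 3.48, 2.42 and 2.53 CPM. Each HFDLFB library was above each HFDHFB library, although the gap between 12.8 and 14.9 CPM was narrow. Leptin spanned the widest range of the members, with 1060-fold between its lowest and highest library and 338-fold within LFDHFB alone.

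Retn encodes resistin, in mice a hormone of adipocytes that opposes insulin. HFDHFB libraries had 0.683, 20.1 and 6.83 CPM and HFDLFB libraries 63.1, 148 and 16.8 CPM. LFDHFB libraries had 1.91, 12.3 and 37.1 CPM and LFDLFB libraries 10.2, 21.6 and 9.07 CPM. Resistin overlapped in every pair of groups compared, and it was the member with the smallest fitted difference between LFDHFB and LFDLFB.

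Cfd encodes adipsin, the complement factor D that fat releases into the blood. It reached 1.34, 51.5 and 20.2 CPM in HFDHFB against 175, 514 and 34.5 CPM in HFDLFB. On the low fat diet it reached 3.19, 49.8 and 168 CPM in LFDHFB and 34.6, 27.7 and 8.99 CPM in LFDLFB. The order of libraries was close to that of Adipoq, with HFDHFB 2 above HFDLFB 3.

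Among the lipid droplet genes, Plin1 encodes perilipin 1, the coat protein that guards the droplet against lipases. It was at 0.114, 7.41 and 3.2 CPM in HFDHFB, at 35.2, 88.3 and 8.27 CPM in HFDLFB, at 0.44, 7.54 and 34.5 CPM in LFDHFB and at 5.27, 4.53 and 2.84 CPM in LFDLFB. As for Lep, the HFDHFB and HFDLFB libraries did not overlap, with 7.41 CPM as the highest of the first and 8.27 CPM as the lowest of the second. Plin4 encodes perilipin 4, a coat protein of small droplets, and was at 3.21, 39 and 19.4 CPM in HFDHFB and 79.8, 206 and 24.9 CPM in HFDLFB. Its LFDHFB values were 2.68, 27.6 and 76.1 CPM and its LFDLFB values 13.4, 8.09 and 5.15 CPM. Cidec encodes a protein that fuses droplets into larger ones. Its values were 10.6, 43.7 and 24.4 CPM in HFDHFB, 153, 283 and 39.6 CPM in HFDLFB, 5.65, 41.1 and 135 CPM in LFDHFB and 26.3, 33.5 and 12.3 CPM in LFDLFB. For Plin4 and Cidec HFDHFB 2 exceeded HFDLFB 3.

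Fabp4 encodes the fatty acid carrier of the adipocyte cytosol and had the highest level of the set. It was at 13.9, 210 and 104 CPM in HFDHFB, 490, 1220 and 141 CPM in HFDLFB, 16.4, 137 and 403 CPM in LFDHFB and 87, 70.5 and 40 CPM in LFDLFB. Lipe encodes hormone-sensitive lipase, which breaks down stored fat, and had 7.9, 29.5 and 16.4 CPM in HFDHFB and 69.7, 146 and 22.7 CPM in HFDLFB. In LFDHFB it had 9.21, 23.5 and 74.5 CPM and in LFDLFB 19.8, 17.9 and 12.2 CPM. Lipe varied least, with 18.4-fold between its lowest and highest library. Lpl encodes lipoprotein lipase, which frees fatty acids from circulating lipoproteins, and had 19.4, 102 and 37.7 CPM in HFDHFB, 220, 784 and 75.2 CPM in HFDLFB, 9.58, 66.6 and 377 CPM in LFDHFB and 35.1, 48.3 and 24.9 CPM in LFDLFB. The HFDHFB and HFDLFB libraries overlapped for all 3 of these genes.

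**Figure D1:**
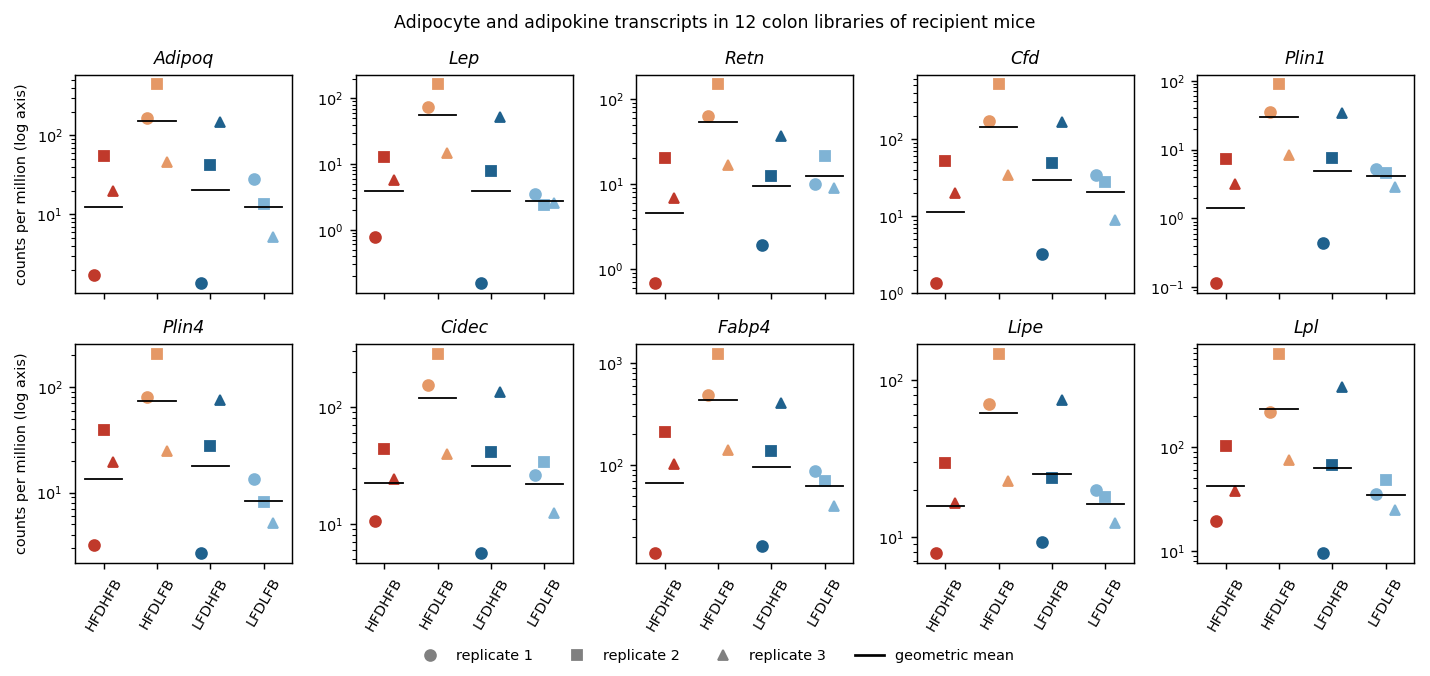
Expression of the 10 members in CPM on a log axis, 1 panel per gene, 1 point per library and a line at the geometric mean of each group, in the groups HFDHFB, HFDLFB, LFDHFB and LFDLFB (3 libraries each). The second HFDLFB library is the highest point for every gene, 442 CPM for Adipoq, and the lowest 2 points are the first libraries of HFDHFB and LFDHFB.

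Per length of exon, Fabp4 led with a median of 189 RPKM (reads per kilobase of exon, scaled to library size) over the 12 libraries. Cfd followed at 37.4, Adipoq at 25.4, Cidec at 19.7, Retn at 9.21, Lpl at 8.44, Lipe at 4.71, Plin4 at 3.85, Plin1 at 3.31 and Lep at 2.01 RPKM. The ranges over libraries overlapped between all neighbours in this order. Exon lengths came from GENCODE vM1, which need not be the annotation the reads were counted on.

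The members moved as a block. Over the 12 libraries the log2 CPM of the 45 pairs of members correlated with Pearson's r from 0.884 (Retn with Plin4) to 0.991 (Adipoq with Fabp4), with a median of 0.96; the points share library and depth, and the members were chosen together, so this is a description. The second HFDLFB library ranked highest for 10 of 10 members, and the first libraries of HFDHFB and LFDHFB held the lowest 2 ranks for 10 of 10. Summed over the members, HFDHFB libraries carried 59.6, 571 and 258 CPM, HFDLFB libraries 1530, 3990 and 424 CPM, LFDHFB libraries 50.6, 416 and 1510 CPM and LFDLFB libraries 263, 248 and 123 CPM. The LFDLFB libraries were closest to each other.

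The make-up of the block was not fixed. Set against Adipoq in the same library, Lipe ranged from 0.33 reads per Adipoq read in HFDLFB 2 to 6.87 in LFDHFB 1, a 20.8-fold range. Cidec ranged from 0.64 in HFDLFB 2 to 6.19 in HFDHFB 1, and Lpl from 1.25 in LFDLFB 1 to 11.3 in HFDHFB 1. The ratio of Lep ran between 0.115 in LFDHFB 1 and 0.483 in LFDLFB 3, and that of Cfd between 0.75 in HFDLFB 3 and 2.38 in LFDHFB 1. The high ratios of Lipe, Cidec and Lpl thus fell in the libraries with the fewest Adipoq reads, which are also the denominator.

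The first comparison asked whether bacteria of HFD-fed donors changed expression in recipients on the high fat diet. It was used to choose the members, so its values are given without a test. All 10 were lower in HFDHFB than in HFDLFB, with a median log2 fold change of -2.91 against -0.00189 over all genes tested. Lep had the largest difference, at -3.71 ± 1.41 (log2 fold change ± SE of edgeR, n = 3 per group), and Plin1 followed at -3.63 ± 1.38. For the other adipokines the values were -3.11 ± 1.42 for Adipoq, -3.06 ± 1.16 for Retn and -3.32 ± 1.39 for Cfd. Plin4 was at -2.34 ± 1.08 and Cidec at -2.59 ± 0.955. Fabp4 was at -2.51 ± 1.1, Lipe at -2.15 ± 0.75 and Lpl at -2.77 ± 1.12. Without HFDLFB 2 the median was -1.99 and without HFDHFB 2 it was -3.94. The groups did not overlap for 2 members, Lep and Plin1. Of all genes 5.03% were separated in that direction, and nothing is read from the count, since the members were selected on these libraries.

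Mesothelium markers, from the serosal lining outside the colon, were also lower in HFDHFB than in HFDLFB. Of 8 markers, 7 were in the table and tested, and 7 of 7 were lower in HFDHFB, with a median log2 fold change of -2.37. All 7 were at an unadjusted p under 0.05, against 4.22% of all genes in that direction. EdgeR called 0 after adjustment, here and over all 15893 genes. The list was drawn up with earlier results of these data known, and this comparison is the one behind the rule. The sum of the markers was 49.6, 59.4 and 107 CPM in the HFDHFB libraries, and 434, 540 and 97.2 CPM in the 3 HFDLFB libraries. In LFDHFB it was 136, 75.7 and 112 CPM and in LFDLFB 57.4, 74.6 and 205 CPM. Within HFDLFB the libraries fell in the same order as for the summed members, and within each of the other groups they did not. The library HFDLFB 3 was the lowest of its group for the members and for mesothelium, and was also the one with pancreas markers. Whether outer wall tissue in the scraped cells contributes to the members' differences was not tested.

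Other layers were represented in every library. The 8 smooth muscle markers summed to 1960 to 7050 CPM in HFDHFB and 1050 to 5070 CPM in HFDLFB, and 8 of 8 had higher values in HFDHFB. The fibroblast markers summed to 621 to 815 CPM and 614 to 1700 CPM in the same groups, where 5 of 8 were lower, and endothelium to 32.6 to 64.1 and 45 to 99.9 CPM, where 8 of 8 were lower. Leukocyte markers summed to 46.2 to 59.5 and 46.3 to 95.4 CPM, with 8 of 8 lower, and those of enteric neurons and glia to 33.5 to 135 and 33 to 148 CPM, with 3 of 8 lower. Epithelium was at 11700 to 14100 CPM and 11200 to 13500 CPM, with 2 of 8 lower. Of the pancreas markers 2 were tested and both were lower. The pancreas list summed to 16.4, 22.6 and 21.9 CPM in HFDHFB and to 19.1, 6.64 and 563 CPM in HFDLFB. Its high sum was thus that of HFDLFB 3 alone. In these 7 lists edgeR called 0 after adjustment, and at an unadjusted p under 0.05 were 1 fibroblast, 2 endothelium, 1 leukocyte and 1 pancreas marker, each lower in HFDHFB. Over all genes edgeR also called 0, and 4.22% were lower at such a p. On the low fat diet, smooth muscle summed to 1930 to 5860 CPM in LFDHFB and 2120 to 4720 CPM in LFDLFB, fibroblast to 590 to 843 and 370 to 995 CPM, endothelium to 55.2 to 80.9 and 50.5 to 77.5 CPM and leukocytes to 50.5 to 79.3 and 47.8 to 91.4 CPM. Apart from the pancreas list, with 4 markers at 0 throughout HFDHFB and 1 throughout LFDHFB, no list had a marker at 0 in every library of a group. Their part in the members' differences was not tested.

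**Figure D2:**
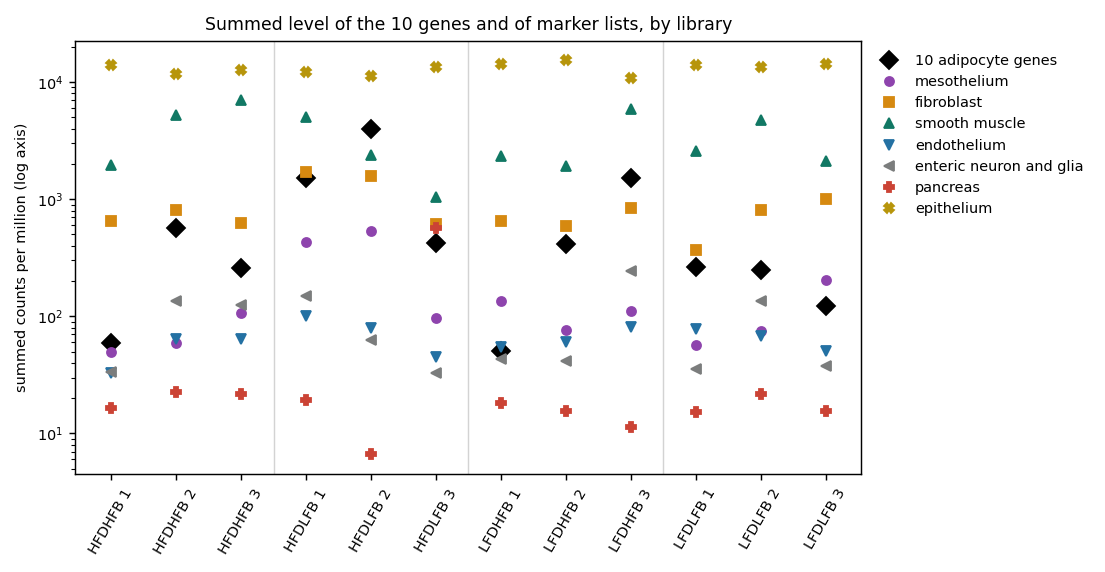
Summed CPM of the 10 members and of 7 marker lists (leukocyte is left out) in every RNA-seq library, on a log axis, with 1 point per library and the groups side by side. The members span 50.6 to 3990 CPM, while the epithelium markers stay between 10800 and 15300 CPM.

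The same question on the low fat diet did not use the rule's contrast and was tested. All 10 members had a higher fitted level in LFDHFB than in LFDLFB, with a median log2 fold change of 1.59 against 0.0222 over all genes, but none passed the test. Adjusted p-values lay between 0.975 and 0.989 (edgeR, Benjamini-Hochberg over 15893 genes), and no member was at an unadjusted p under 0.05, against 2.01% of all genes in that direction. EdgeR called 0 of all genes in this comparison, and DESeq2 called 0 members and 0 genes. Lep was at 2.69 ± 1.38 (log2 fold change ± SE), Lpl at 1.95 ± 1.09, Adipoq at 1.94 ± 1.36 and Plin4 at 1.90 ± 1.07. Plin1 was at 1.64 ± 1.28, Cfd at 1.54 ± 1.31, Fabp4 at 1.40 ± 1.06, Cidec at 1.25 ± 0.916 and Lipe at 1.01 ± 0.729. Retn, at 0.25 ± 1.08, had the smallest value. Its mean log2 CPM went the other way, at 3.271 in LFDHFB and 3.694 in LFDLFB. Since the members moved as a block, their shared direction is not 10 separate observations. The 2 groups overlapped for every member, against 6.00% of all genes that were separated in that direction. The size of the difference rested on LFDHFB 3, without which the median was 0.202 and Retn was at -0.851. In the same libraries 5 of 7 mesothelium markers were lower and 8 of 8 markers of enteric neurons and glia were higher in LFDHFB, where LFDHFB 3 held 243 CPM of the latter against 35.7 to 136 CPM in LFDLFB, with 0 called by edgeR and 0 at an unadjusted p under 0.05 in either list. The labels do not say how the replicates were obtained, so these p-values measure the spread between these samples.

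**Figure D3:**
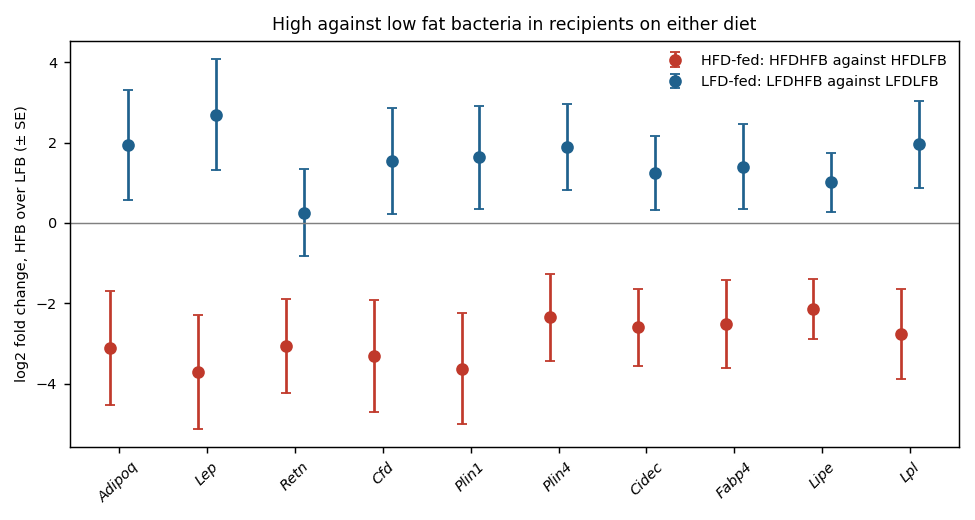
Log2 fold change (± SE, 3 libraries per group) of each member for HFDHFB against HFDLFB and for LFDHFB against LFDLFB. All 10 points lie below 0 on the high fat diet, down to -3.71 for Lep, and above 0 on the low fat diet, up to 2.69 for Lep, where none passed the test.

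The diet comparisons share libraries with the comparison behind the rule, so their values stand as a description. With bacteria of HFD donors, the members were lower in HFDHFB than in LFDHFB by a median log2 fold change of -1.25, from -1.96 for Plin1 to -0.75 for Fabp4, and 0 were separated between the groups (3.39% of all genes). That direction rested on 1 library, since the median was 0.136 without LFDHFB 3. With bacteria of LFD donors, they were higher in HFDLFB than in LFDLFB by a median of 3.26, from 2.18 for Lipe to 4.81 for Lep, and by 2.15 without HFDLFB 2. There, 8 members, all but Retn and Cfd, did not overlap between the groups. Of all genes 7.45% were separated in that direction, and nothing is read from this count either, since HFDLFB is an arm of the selection. The interaction, which subtracts the effect of bacteria on the low fat diet from that on the high fat diet, was negative for all 10, from -6.40 ± 1.97 for Lep to -3.16 ± 1.04 for Lipe, with a median of -4.48. It contains the comparison behind the rule, and no test of it is given.

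Outside the set, the genes most like the members were found by Pearson's r with the mean of the members over the 12 libraries, given as a description. Car3 came first at 0.997, ranging from 6.55 to 1620 CPM. Car3 encodes a carbonic anhydrase abundant in fat and muscle. Tusc5, a protein of glucose transporter traffic in fat, was at 0.993, and Tshr, the thyrotropin receptor, also at 0.993. Aqp7, the glycerol channel of adipocytes, and Prr32 were both at 0.985, and each was at 0 in at least 1 library, with up to 7.22 and 3.61 CPM.

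The wider pathway was followed in lists of related genes. EdgeR called 0 of them in any comparison, as it called 0 of all 15893 genes tested. At an unadjusted p under 0.05, 4.22% of all genes were lower in HFDHFB than in HFDLFB. This comparison is the one behind the rule, and the lists were drawn up with earlier results known. Counts of list genes in it are therefore a description. Of 4 adipokine receptors, 3 had lower values in HFDHFB than in HFDLFB, with a median log2 fold change of -0.06. The adiponectin receptors Adipor1 and Adipor2 were at -0.07 and -0.06. Of 8 regulators of adipogenesis, 5 were lower (median -0.24, 1 at an unadjusted p under 0.05), while Pparg, the receptor that drives fat cell formation and is also made by colonocytes, was at 0.13 and Srebf1, a regulator of lipogenic genes, at -0.06. Of 8 other lipid droplet proteins 6 were lower (median -0.16, 1 at an unadjusted p under 0.05), with the ubiquitous coat protein Plin2 at -0.22 and Cideb at -0.08. All 8 other lipolysis genes were lower (median -0.73, 1 at an unadjusted p under 0.05), with the triglyceride lipase Pnpla2 at -0.40 and its activator Abhd5 at -0.28. These are the 2 genes with the highest expression of each list. Some genes of lower expression in the same lists, picked after their values were seen, had larger differences. The adrenergic receptor gene Adrb3 was at -2.16 ± 1.01 and G0s2, an inhibitor of Pnpla2, at -1.59 ± 0.792. The perilipin gene Plin5 was at -2.12 ± 0.891 and the transcription factor gene Klf15 at -1.36 ± 0.524. Klf15 and Plin5 do not stand for their lists, where 3 of 8 regulators and 2 of 8 droplet proteins had higher values in HFDHFB. Adrb3 and G0s2 come from the lipolysis list, where all 8 were lower but the median was only -0.73. Adrb3 (0.455 to 22.8 CPM), G0s2 (1.48 to 32 CPM) and Plin5 (0.0683 to 2.61 CPM) were lowest in HFDHFB 1 and highest in HFDLFB 2.

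Of the genes named for their expression, Cd36 had the largest difference. It encodes a fatty acid uptake receptor and had 8.6, 32.8 and 19.7 CPM in HFDHFB, 145, 341 and 42.2 CPM in HFDLFB, 12.2, 33.4 and 148 CPM in LFDHFB and 24.7, 18 and 17.1 CPM in LFDLFB. Its libraries fell in much the same order as the members, and its HFDHFB and HFDLFB values did not overlap. The log2 fold change was -3.11 ± 0.886 on the high fat diet (edgeR, adjusted p = 0.495) and 1.58 ± 0.839 on the low fat diet (edgeR, adjusted p = 0.975). In its list of lipoprotein lipase partners and uptake genes, 8 of 9 were lower on the high fat diet with a median of -0.94, and Vldlr, a lipoprotein receptor, was at -0.39. At an unadjusted p under 0.05 by edgeR, 1 of the 9 was lower and 1 was higher in HFDHFB. Of all genes 4.22% were lower and 4.85% higher at such a p. Of 12 genes of triglyceride synthesis and glucose uptake 11 were lower (median -0.40), with the lipogenic enzyme Acly at -0.22 and Pck1, which acts on a route to glycerol phosphate in fat, at -0.30. The 5 of them at an unadjusted p under 0.05 were Acsl1 at -1.28 ± 0.318, Gpd1 at -1.25 ± 0.565, Dgat2 at -1.20 ± 0.419, Lpin1 at -1.16 ± 0.485 and Gpam at -0.51 ± 0.218, each lower in HFDHFB. They were named after their values were seen, and 4.22% of all genes were lower at such a p. The comparison is the one the members were chosen on, so nothing is read from the count of 5. Dgat2 (76.7 to 373 CPM), Gpd1 (29.2 to 192 CPM) and Acsl1 (38.9 to 179 CPM) were highest in HFDLFB 2.

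Genes of brown fat and of other fatty acid carriers completed the lists. Of 7 brown fat genes 5 were tested and 3 were lower in HFDHFB (median -0.40), with the coactivator Ppargc1a at -0.40 and Cox7a1 at 0.19. Ucp1, the uncoupling protein that defines brown adipocytes, had 0 or 1 counts in every library. Of 4 other fatty acid binding proteins 1 was lower, Fabp5 at -0.91, and the enterocyte carrier Fabp2 was at 0.40. Fabp5 was at an unadjusted p under 0.05 by edgeR, where 4.22% of all genes were lower. On the low fat diet, values were higher in LFDHFB for 2 of 4 adipokine receptors, 3 of 8 adipogenic regulators, 3 of 8 droplet proteins, 6 of 8 lipolysis genes, 5 of 9 uptake genes, 10 of 12 synthesis genes, 2 of 5 brown fat genes and 4 of 4 carriers, with 0 called and 1 of them, an uptake gene, at an unadjusted p under 0.05. At such a p 2.01% of all genes were higher.

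Peak lists were then read at the members, within each gene and 10 kb on either side. They hold positions only, 38317 to 51873 peaks per H3K27ac list, 71853 to 79511 per H3K4me1 list and 21308 to 27766 per HNF4α list, so the depth behind them is unknown. In the long-term mice, 3 members, Plin1, Cidec and Lipe, had H3K27ac in all 12 lists, Lpl had it in 8 and Fabp4 in 1. The other 5, Adipoq, Lep, Retn, Cfd and Plin4, had no H3K27ac peak in any of these lists. Over all 25494 genes, 58.3% had a peak in every list and 32.1% in none. Among the 8466 genes with a median expression between 6.34 and 121 CPM, the range of the members in the scraped cells, 94.6% had a peak in every list and 2.06% in none.

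Within 1 kb of the start, 2 members had H3K27ac in all 12 long-term lists (Cidec and Lipe), 2 in some (Plin1 in 9 and Lpl in 8) and 6 in none. Over all genes, 44.7% had it there in every list and 46% in none, whereas 87.3% of the genes of like expression had it in every list. In the recipients, 3 members had H3K27ac within 10 kb in every list, 4 in some and 3 in none (Adipoq, Lep and Cfd). The shares over all genes were 57.7% in every list and 30% in none, and 94.7% and 1.64% over the genes of like expression. The recipients gave the same counts as the long-term mice near the start, 2, 2 and 6 members over 11 lists. There, 44.7% of all genes had a peak in every list and 44% in none, and 87.7% of genes of like expression had it in every list. H3K4me1 was wider, with 7 members in every list of the 10-kb window, Retn in 7 of 12, Lep in 1 and Adipoq in 0. Of all genes 69.6% had H3K4me1 there in every list, a share close to 7 of 10, and of the genes of like expression 96.5% did. HNF4α had a peak in all 4 lists at Plin1, Cidec and Lipe, in 2 at Fabp4, in 1 each at Retn and Lpl, and in none at Adipoq, Lep, Cfd and Plin4. Among all genes 26.5% had a peak in all 4 and 37.4% in none, shares close to those of the members. Among the genes of like expression 41.5% had a peak in all 4 and 11.8% in none. ChIP-seq and RNA came from different preparations, and whether any animal gave both is not stated.

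**Figure D4:**
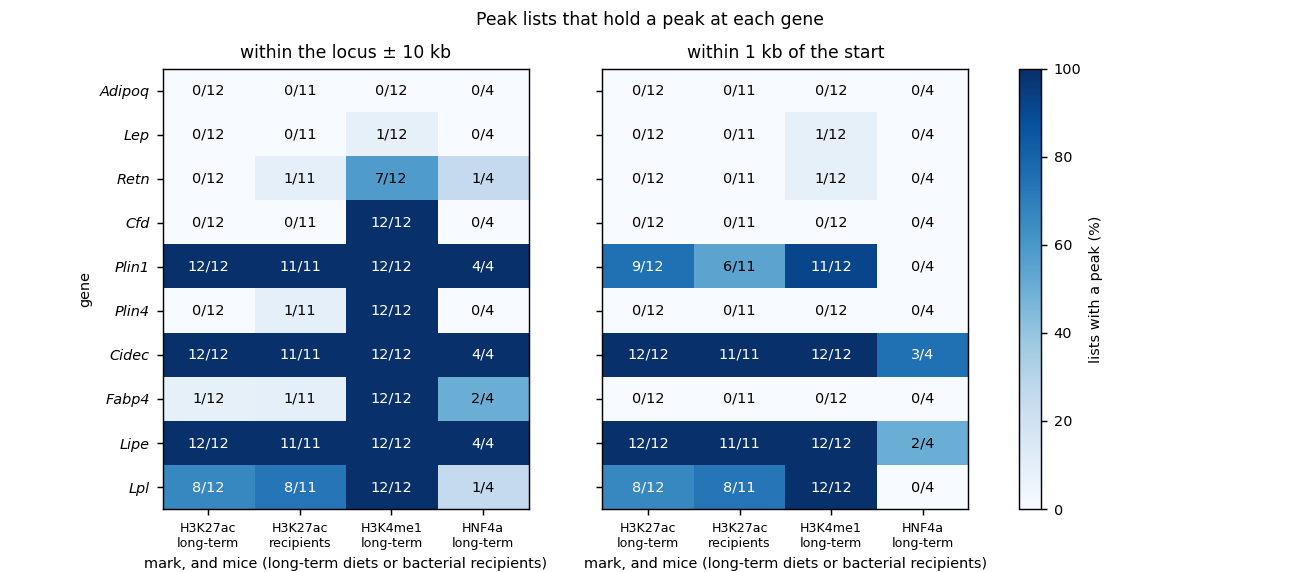
Number of peak lists with at least 1 peak at each member, by mark and mice (H3K27ac of 12 long-term and 11 recipient lists, H3K4me1 of 12, HNF4α of 4). The left panel counts peaks within 10 kb of the gene and the right panel those within 1 kb of its start. Within 10 kb, Plin1, Cidec and Lipe have a peak in every list of each kind and Adipoq in none.

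Adipoq (gene ID 11450, chr16:23146609-23158041) was bare of all 3 marks, and no other gene's start lay in its window. Lep (16846, chr6:29010221-29023876) had a single peak, H3K4me1 from -1620 to -821 bases of its start in 1 male HFD list. Retn (57264, chr8:3655770-3659818) had H3K4me1 about the far edge of its window in 6 lists and inside the gene in 1, and its only H3K27ac peak, from -7969 to -6770, was in a recipient list, HFDLFB 3. The H3K4me1 peaks at Cfd (11537, chr10:79353598-79355400) and Plin4 (57435, chr17:56240014-56249225) did not touch either gene. At Cfd they lay upstream in all 12 lists, toward the start of Prtn3 at -11186, and downstream from about 6203 to 7802, and at Plin4 they included the start of Plin5 at -7746 in 12 of 12 lists. The only H3K27ac peak by Plin4, from -7975 to -7376, was in the recipient list HFDLFB 2. Fabp4 (11770, chr3:10204343-10208576) had H3K4me1 on both sides in 12 of 12 lists, but none within 1 kb of its start, and H3K27ac from -5624 to -4825 in 1 long-term list and from -5824 to -4425 in HFDHFB 1.

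Plin1 (103968, chr7:86866050-86877662) had an H3K27ac peak over the shared HNF4α interval printed above in 23 of 23 lists, and H3K4me1 there in 12 of 12. A typical peak ran from -3338 to -939, as in the first male LFD list. A further H3K27ac peak in every list lay at the start of the neighbour Pex11a, at -10249, a peroxisome gene of 13.2 CPM (median), so the covered length at Plin1 is partly that of its neighbour. Cidec (14311, chr6:113374628-113385754) likewise had H3K27ac over its shared HNF4α interval in 23 of 23 lists and H3K4me1 in 12 of 12, a second HNF4α peak inside the gene in 3 of 4 lists (795 to 1034 in the first HFD list), and peaks at the starts of its neighbours Jagn1 (-6757) and Rpusd3 (16420) in all 12 long-term lists.

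Lipe (16890, chr7:26164546-26181006) had H3K27ac across its start in every list, from -994 to 2005 in the first female LFD list, and in every list a second peak inside the gene, for example from 4806 to 6405 in male HFD list 1. HNF4α peaks lay well inside the gene, at 1 recurring site, in 3 of 4 lists (3580 to 3809 in the first LFD list), upstream in 3 (-6985 to -6756 in the same list) and across the start (-191 to 38) or just inside it (17 to 236) in the LFD lists and in neither HFD list. Lpl (16956, chr8:71404454-71430831) had H3K4me1 over its start in all 12 lists and H3K27ac at or just inside its start in 8 of 12 long-term and 8 of 11 recipient lists, for example 147 to 1946 in male HFD list 3. No other gene lay in the window of Adipoq, Lep or Lpl.

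**Figure D5:**
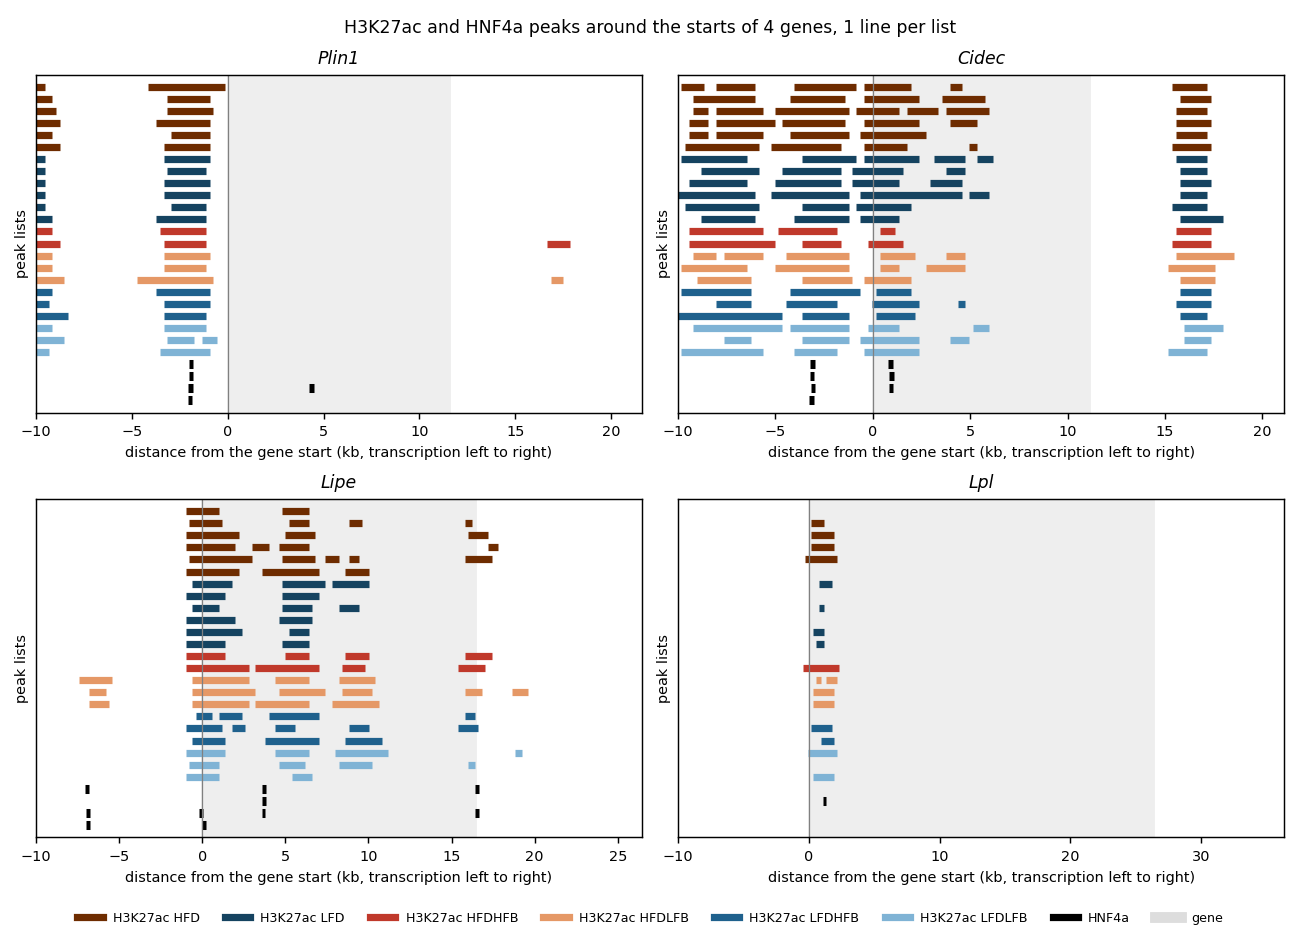
Peaks of H3K27ac (coloured by group, 23 lists) and HNF4α (black, 4 lists) around Plin1, Cidec, Lipe and Lpl, 1 line per list, by distance from the start of the gene in kb (negative values upstream), with the gene body shaded. The upstream peaks of Plin1 and Cidec recur in all 23 H3K27ac lists.

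No member's covered length passed the test between the long-term diets. The length covered by H3K27ac at Plin1 was 2.86 to 4.46 kb on the HFD (3.6 ± 0.602, SD, n = 6) and 2.26 to 3.46 kb on the LFD (2.8 ± 0.413, SD, n = 6), 0.8 kb longer on the HFD (two-sided exact permutation test within sex, p = 0.04, adjusted p = 1). The ranges overlapped. It was the only member of 5 tested at an unadjusted p under 0.05, where 3.71% of 17317 loci were longer on the HFD and 0 were called, and it was not under 0.05 without the extension by 10 kb or in 8 of 12 fits that each left out 1 list. Cidec was covered over 12.5 ± 1.27 kb and 12 ± 2.04 kb (exact permutation test, n = 6, p = 0.66), and Lipe over 6.23 ± 2 kb and 5 ± 1.12 kb (exact permutation test, n = 6, p = 0.21). Lpl was at 1.17 ± 1.01 and 0.467 ± 0.413 kb (exact permutation test, n = 6, p = 0.21), and Fabp4 had its only H3K27ac peak in 1 LFD list (p = 1 by the same exact test). The median difference over all loci was 0.198 kb.

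For H3K4me1, 9 members were tested of 19991 loci, with 0 called and 0 at an unadjusted p under 0.05 (1.57% of loci were shorter and 1.85% longer on the HFD). The lowest p was that of Cfd, covered over 3.2 ± 0.738 kb on the HFD and 4.14 ± 0.797 kb on the LFD (two-sided exact permutation test, n = 6, p = 0.09, adjusted p = 1). Plin1 was at 8.8 ± 1.91 and 8.1 ± 0.303 kb, Lipe at 16.3 ± 1.6 and 16 ± 1.02 kb and Lpl at 3.03 ± 0.753 and 3.03 ± 0.731 kb. With 400 permutations the smallest p possible was 0.005.

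In the recipients, no member's H3K27ac covered length separated the bacterial groups on either diet. Of all loci, 7.45% were separated with HFDHFB lower and 5.95% with HFDHFB higher on the high fat diet, and on the low fat diet 4.83% and 2.02% with LFDHFB lower and higher. Plin1 was covered over 3.26 and 4.66 kb in the 2 HFDHFB lists and 3.26, 3.06 and 6.06 kb in HFDLFB. Cidec was covered over 9.4 and 10.2 kb in HFDHFB and 12.2, 12.6 and 9.6 kb in HFDLFB. Lipe was at 6.8 and 10.6 kb against 9.6, 11.4 and 10.6 kb, and Lpl at 0 and 2.8 kb against 1.2, 1.6 and 1.6 kb. Groups of 2 and 3 lists are too small for a permutation test to pass the threshold, and none was made. Leaving out either HFDHFB list keeps 1 list in that group, so no count of separated members is given for it. On the low fat diet Lipe was at 6, 6.6 and 7.4 kb in LFDHFB and 8, 5.8 and 3.2 kb in LFDLFB, and Lpl at 0, 1.6 and 1 kb and 2.2, 0 and 1.6 kb.

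A single H3K27ac region upstream of Lipe, chosen after its values were seen, was found in 3 of 3 HFDLFB lists and in none of the 20 others. It ran from -7394 to -5395 bases of the start of Lipe (chr7:26186401-26188400) and reached the upstream HNF4α peak of the long-term mice. Of 70669 merged H3K27ac regions, 24 (0.034%) had that pattern, and this was the only one in the window of a member. Nothing is read from that share, since the region was chosen by its pattern and no other group was counted. The HFDLFB lists held 48889, 46138 and 49147 peaks, more than any other H3K27ac list but HFDHFB 2 (51873).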

How the data were processed

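RNA-seq of recipients and ChIP-seq peak lists of recipients and long-term-diet mice were used; 84 samples form the series. The RNA-seq file holds counts of reads for each gene, raw as the authors deposited them. Per the submitters' processing notes and the methods, reads were aligned with STAR 2.5 to mm9 and counted with featureCounts 1.5.0-p1, and ChIP-seq reads were aligned with Bowtie 0.12.8, de-duplicated with Picard 1.110 and passed to SICER (histone marks, windows of 200 bp) or HOMER (HNF4α), 1 list per library with no score or read count. Ends of histone peaks were read as inclusive.

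Members and gene lists were chosen with earlier results of these data known. All 10 members were named. From each pathway list, genes past an adjusted p of 0.05 were to be named and up to 2 with the highest mean log2 CPM were named. Adrb3, G0s2, Plin5, Klf15, Acsl1, Gpd1, Dgat2, Lpin1 and Gpam were named outside this rule, after their values were seen. Ucp1 and Car3 to Prr32 were added as a defining marker and as the 5 genes most like the members. The counts were fitted by edgeR 4.0.16 under R 4.3.3 (TMM, filterByExpr, quasi-likelihood F-test, 4 groups in 1 fit, prior count of 2 for log2 CPM, Benjamini-Hochberg adjustment). DESeq2 1.42.0, other size factors, no filter, a replicate block, smaller fits and each library left out were alternatives. Covered length was compared by exact permutation of diets within sex over all loci, in Python 3.11.15. Of 124 list genes 123 were in the table. Steps were tested on simulated data. Gene arrays and 16S data were not analysed here.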

Additional observations from a re-analysis of the deposited data

How the results depend on the processing

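No member was called for LFDHFB against LFDLFB in any of the alternative settings, and of 220 alternative values of single members 2 turned sign, both of Retn for LFDHFB against LFDLFB. Replicate numbers did not pair the libraries (18 pairs, r from -0.591 to 0.451, 6 over 0.1, 1 of 12 libraries closest to its own number). With the replicate block, 0 members were called on the low fat diet, the median log2 fold change was -3.14 for HFDHFB against HFDLFB and 1.02 for LFDHFB against LFDLFB, and Retn was at -0.00996 in the latter. Leaving out single libraries, the median ranged from -3.94 (without HFDHFB 2) to -1.99 (without HFDLFB 2) and from 0.202 (without LFDHFB 3) to 2.15 (without LFDHFB 1) in these comparisons, and from -2.21 to 0.136 for HFDHFB against LFDHFB, and Retn from -0.851 to 0.776 on the low fat diet. The cause was not tested.

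Peak counts followed the window by construction. With no extension and with 50 kb, 1 member each had separated H3K27ac lengths between HFDHFB and HFDLFB. Leaving out single HFDLFB lists gave 0 to 1, as did leaving out single lists on the low fat diet. The share over all loci was not computed at these settings, so nothing is read from these counts. With 50 kb, members with a peak in every list rose to 7 for H3K27ac in both sets of mice and for HNF4α, and those with none fell to 1, 1 and 1, and to 0 for H3K4me1. With no extension, 4 members had H3K4me1 in every list and 5 in none, 7 had no H3K27ac in recipients, and 1 had HNF4α in every list. Without single lists, 1 to 2 members had no H3K4me1. Group sizes of 3 and lists without read counts limit all of these values.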
